A study of Homo sapiens with 6 samples.

Results

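The 10 genes FOS, FOSB, FOSL1, FOSL2, JUN, JUNB, JUND, MAFF, MAFG and MAFK were taken by symbol from 60670 genes listed for the human endometrial adenocarcinoma line Ishikawa. The cells had been exposed to 5 µM penfluridol, an antipsychotic of the diphenylbutylpiperidine class, or to its solvent DMSO alone, with 3 libraries of messenger RNA per group. The sources used here give neither the length of the exposure nor whether the libraries of a group came from separate cultures. The spread that the p-values rest on may therefore be technical. Levels are in TPM, transcript abundances scaled for transcript length and to a fixed total per library. The table used here holds no read counts, and the sequencing depth is therefore unknown.

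FOS, JUN and small MAF proteins belong to the basic leucine zipper family, in which a basic stretch contacts DNA and a leucine zipper pairs the protein with a partner. FOS proteins bind DNA only as heterodimers, mostly with JUN proteins, and the pair is known as AP-1. JUN proteins can also pair with each other. Small MAF proteins lack a transactivation domain and act through partners such as NRF2 and BACH1 at antioxidant response elements. Several of these genes are immediate early genes, whose short-lived transcripts are made within minutes of growth factor or stress signals.

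The epithelial identity of the cells was checked with 8 markers (EPCAM, CDH1, KRT8, KRT18, KRT19, PAX8, SOX17 and WFDC2), each of which had at least 10 TPM in all libraries. Their summed level was 4379 to 4968 TPM in the penfluridol libraries and 6841 to 8650 TPM in the DMSO libraries. KRT8, a keratin, averaged 1109 ± 86.1 TPM with penfluridol and 1988 ± 231 TPM with DMSO (SD, n = 3 each), and WFDC2, a secreted epithelial protein, averaged 1888 ± 112 TPM with penfluridol and 3282 ± 404 TPM with DMSO. Both fell (limma adjusted p = 0.00903 for KRT8 and 0.0104 for WFDC2), each without a call when penfluridol 2 or DMSO 1 was left out or with median-of-ratios scaling. SOX17, an epithelial transcription factor, was called higher (log2 fold change 0.73, adjusted p = 0.0355). Its call was lost with any library but DMSO 3 left out, with no filter on low TPM (0.0738) and with the GC and length trend removed (0.43, 0.0698). The part of these changes in the results on AP-1 was not tested. Of 9 fibroblast, leukocyte and endothelial markers, 8 stayed under 1 TPM in every library and DCN, LUM and CD3E were listed at 0 throughout. The exception was COL1A1, a fibrillar collagen, at 2.70 ± 1.51 TPM with penfluridol and 2.27 ± 0.365 TPM with DMSO. Libraries correlated at 0.970 to 0.982 within the penfluridol group, at 0.930 to 0.960 within DMSO and at 0.895 to 0.955 between the groups, over log2(TPM + 1) of the genes tested. DMSO 3 was closest to the penfluridol libraries.

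RefSeq promoters (GRCh38.p14, from 250 bases before to 50 after a start) were at hand for 8 of the 10 genes, all but FOSL1 and MAFK, with a pair of starts for MAFF. They are shown because most of them share a cAMP response element core, TGACGT, to which CREB and ATF proteins and some JUN dimers bind. TGACGT, read on both strands, occurred in 6 of the 9 promoters, those of FOS, FOSB, FOSL2, JUND, MAFF and MAFG, against 7.97% of 34943 promoters of that length. The full palindrome TGACGTCA, which holds the core on each strand, was in the JUND promoter and in 1 MAFF promoter, against 1.84% of all. In JUN the related TGACATCA (2.61% of all promoters) lay 67 bases before the start. In the stretches below, each with 20 bases on either side and read 5′ to 3′ on the gene's strand, capitals mark the match (ACGTCA is TGACGT read on the other strand).
JUN, chr1:58784087-58784134, minus strand: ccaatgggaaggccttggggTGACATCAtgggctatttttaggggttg
FOSL2, chr2:28392772-28392817, plus strand: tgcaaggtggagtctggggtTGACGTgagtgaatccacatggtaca
FOS, chr14:75278744-75278789, plus strand: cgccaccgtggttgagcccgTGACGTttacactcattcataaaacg
FOSB, chr19:45467916-45467961, plus strand: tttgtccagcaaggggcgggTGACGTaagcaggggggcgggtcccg
MAFF, chr22:38201920-38201967, plus strand: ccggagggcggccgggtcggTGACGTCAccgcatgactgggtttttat
JUND, chr19:18281795-18281842, minus strand: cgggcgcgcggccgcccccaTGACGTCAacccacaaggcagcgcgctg
JUND, chr19:18281684-18281729, minus strand: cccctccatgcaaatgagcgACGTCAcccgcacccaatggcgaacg
The match began 66 bases before the start in FOSL2, 64 in FOS, 60 in FOSB and 54 in MAFF, close to the 67 of the JUN site, and 200 and 87 bases before it in JUND. In MAFG it lay 4 bases after the start. TATAAA, the TATA box sequence, was in the promoters of FOS, FOSB and JUNB at 33, 30 and 31 bases before the start, against 11.6% of all promoters. The AP-1 site TGACTCA was found in FOSL2 alone (4.96% of all), and neither the serum response CArG box (1.30% of all) nor the C/EBP-ATF sequence TGATGCAA (0.870% of all) occurred in these windows. A match describes the letters of the window and says nothing about a factor bound there. The background was all promoters of that length, not matched for GC content or expression. A link between the core and the change of these genes was not tested.

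All 10 genes reached a mean of 1 TPM and entered the test over 12201 genes. With penfluridol 8 of them rose, FOSB, FOSL1, FOSL2, JUN, JUNB, JUND, MAFF and MAFK, at a limma adjusted p under 0.05, where 9.75% of all genes tested were called higher. FOS and MAFG did not pass. The list was chosen with earlier results of these data known, so 8 of 10 against 9.75% describes it and is no independent test. No member was called lower by limma, against 3.48% of all genes. At an unadjusted limma p under 0.05 there were 10 higher and 0 lower, against 2302 higher and 1727 lower of the 12201 genes tested. In all 10 the 3 penfluridol values lay above the 3 DMSO values, as they did in 23.3% of the genes tested, and in none below, against 13.6%. The median log2 fold change was 1.27, against -0.04 over all genes tested, on the log2(TPM + 1) scale that understates the change of low genes. In bulk RNA, more transcript per cell and a larger share of cells with the transcript cannot be told apart. With 1 library left out, 5 members were called without penfluridol 1, penfluridol 2 or DMSO 1, 6 without penfluridol 3 or DMSO 2, and 9 without DMSO 3. The number of all genes called higher moved more, to 446 without penfluridol 1, 197 without penfluridol 2, 635 without penfluridol 3, 297 without DMSO 1, 619 without DMSO 2 and 1692 without DMSO 3, against 1190 with all libraries.

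**Figure D1:**
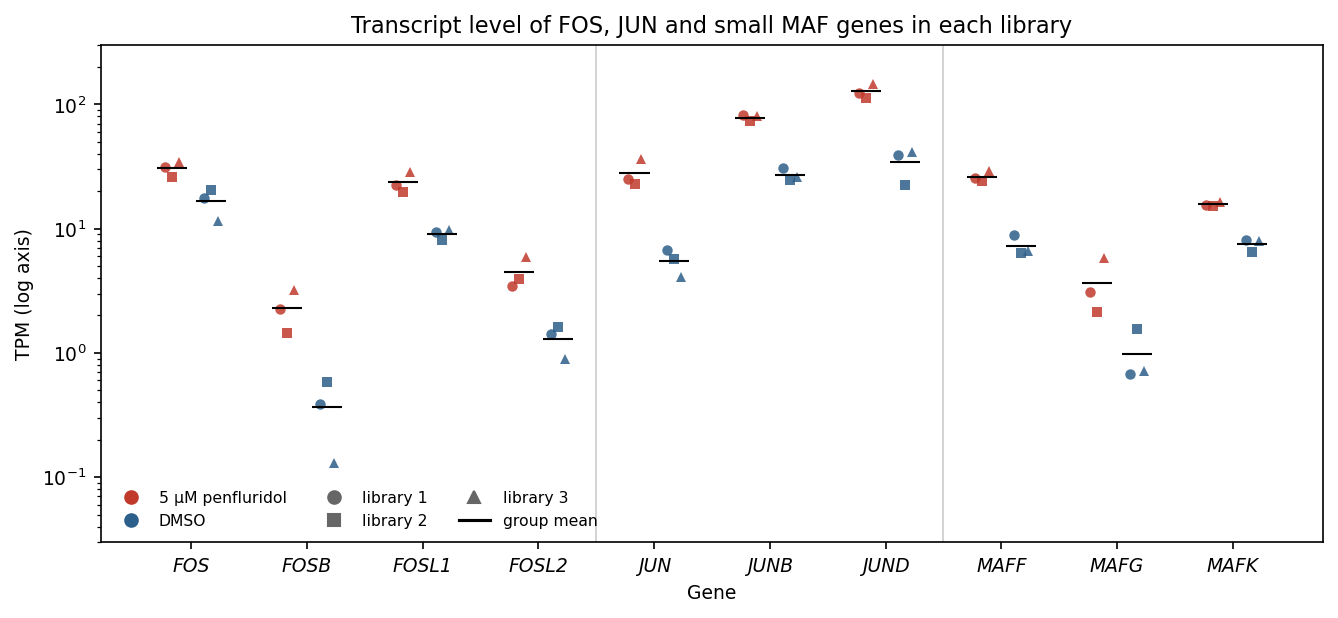
TPM on a log axis for each gene in the 3 penfluridol libraries (red, left) and the 3 DMSO libraries (blue, right), with marker shape for the library number and a line at the group mean. In every gene the red points lie above the blue ones, with the narrowest gap in FOS, where the lowest penfluridol value is 25.91 and the highest DMSO value is 20.58 TPM.

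Among the JUN genes, which supply the partner that FOS proteins need, JUN itself changed most. JUN, the founding member and a substrate of the JNK kinases, had 25.15, 22.72 and 36.28 TPM in the penfluridol libraries, against 6.68, 5.66 and 4.09 TPM in the DMSO libraries. Every penfluridol value was over 3 times the highest DMSO value. The log2 fold change was 2.16 (95% confidence interval 1.59 to 2.72, adjusted p = 0.00345, SE 0.24), the thirtieth largest increase of all genes tested. JUND, the member that resting cells usually express and that is known to restrain proliferation, had 122.52, 111.93 and 146.67 TPM with penfluridol, against 38.97, 22.49 and 41.13 TPM with DMSO. DMSO 2 was well below the other DMSO libraries, and the groups stayed apart by 70.8 TPM. JUND rose by a log2 fold change of 1.90 (interval 1.34 to 2.47, adjusted p = 0.00507, SE 0.24), or 1.63 without DMSO 2. JUNB, an early response gene whose product can oppose JUN, had 81.76, 72.93 and 80.12 TPM with penfluridol, against 30.47, 24.78 and 26.15 TPM with DMSO. Its libraries were the most even of the JUN genes, and it rose by 1.50 (interval 1.20 to 1.80, adjusted p = 0.00151, SE 0.13).

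In the FOS family, whose products complete the AP-1 dimer, the low and mid-level genes passed the test and FOS did not. FOSL1, which encodes FRA1, a FOS protein without the strong transactivation domain of FOS, had 22.27, 19.86 and 28.69 TPM with penfluridol, against 9.30, 8.07 and 9.69 TPM with DMSO. All penfluridol values were over 2 times the highest DMSO value. It rose by a log2 fold change of 1.28 (interval 0.86 to 1.71, adjusted p = 0.00710, SE 0.18). FOSL2, which encodes the related FRA2, had 3.46, 3.95 and 5.92 TPM with penfluridol, against 1.41, 1.60 and 0.89 TPM with DMSO. It rose by 1.23 (interval 0.62 to 1.84, adjusted p = 0.0253, SE 0.26). FOSB, known for a stable short splice form in neurons, was the scarcest member, at 2.26, 1.45 and 3.18 TPM with penfluridol and 0.39, 0.58 and 0.13 TPM with DMSO. It rose by 1.25 (interval 0.58 to 1.92, adjusted p = 0.0325, SE 0.29), or by 2.43 with a pseudocount of 0.1 in place of 1. The calls of FOSB and FOSL2 held without DMSO 3 (0.0289 and 0.0260) but with no other library left out, where FOSB had adjusted p-values of 0.0537 to 0.108 and FOSL2 of 0.0531 to 0.105. They were also lost with no filter on low TPM (0.0814 and 0.0701).

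FOS, the prototype immediate early gene, had 31.46, 25.91 and 34.21 TPM with penfluridol, against 17.69, 20.58 and 11.40 TPM with DMSO. The groups were 5.33 TPM apart, and the DMSO values spread widely for their level. The log2 fold change was 0.87 (interval 0.33 to 1.42, SE 0.23), just outside the threshold (adjusted p = 0.0502). It passed with a pseudocount of 0.1 (0.0488), with at least 5 TPM in at least 3 libraries (0.0362), with median-of-ratios scaling (0.0272) and without DMSO 3 (0.0329), and missed by more once the dependence on GC content and transcript length was taken out of each library (0.133).

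Of the small MAF genes MAFF had the largest log2 fold change on the log2(TPM + 1) scale, while the ratio of mean TPM was 3.74 for MAFG, 3.61 for MAFF and 2.08 for MAFK. MAFF, a stress-induced small MAF described in the myometrium as binding the oxytocin receptor gene, had 25.31, 24.33 and 28.97 TPM with penfluridol, against 8.84, 6.35 and 6.57 TPM with DMSO. It rose by a log2 fold change of 1.73 (interval 1.32 to 2.14, adjusted p = 0.00247, SE 0.17). MAFK, a widely expressed partner of NRF2 and BACH1, had 15.35, 15.21 and 16.37 TPM with penfluridol, the tightest group of all members, against 8.12, 6.50 and 7.94 TPM with DMSO. It rose by 0.97 (interval 0.60 to 1.34, adjusted p = 0.0109, SE 0.16), or by 0.56 once corrected for GC content and length, and its call was lost without penfluridol 1 (0.0534), penfluridol 2 (0.0818) or DMSO 1 (0.0602). MAFG, which also pairs with NRF2, had 3.06, 2.15 and 5.83 TPM with penfluridol, against 0.67, 1.56 and 0.72 TPM with DMSO. Penfluridol 3 and DMSO 2 were high for their groups, and the lowest penfluridol value was 0.59 TPM above the highest DMSO value. Its log2 fold change of 1.19 did not pass (interval 0.37 to 2.01, adjusted p = 0.0663, SE 0.35), and passed with median-of-ratios scaling alone (0.0405).

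All 10 genes had transcripts richer in GC than the median gene tested. Their GC content ran from 56.5% in FOSL2 to 69.7% in JUND, against 51.8% over all genes tested. After each library's trend with GC content and transcript length was removed, the median log2 fold change of the members was 0.96 (all genes -0.01) and the same number, 8 of 10, were called higher, where 10.1% of 12112 genes were, and 0 lower, against 8.93%. JUN kept a log2 fold change of 1.87 (adjusted p = 0.00142), JUND 1.51 (0.00359), MAFF 1.40 (0.00136) and JUNB 1.11 (0.00138). Median-of-ratios scaling called all 10 higher, where 8.14% of all genes were (lower, 0 of 10 against 5.88%), and moved the median of all genes from -0.04 to -0.03.

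**Figure D2:**
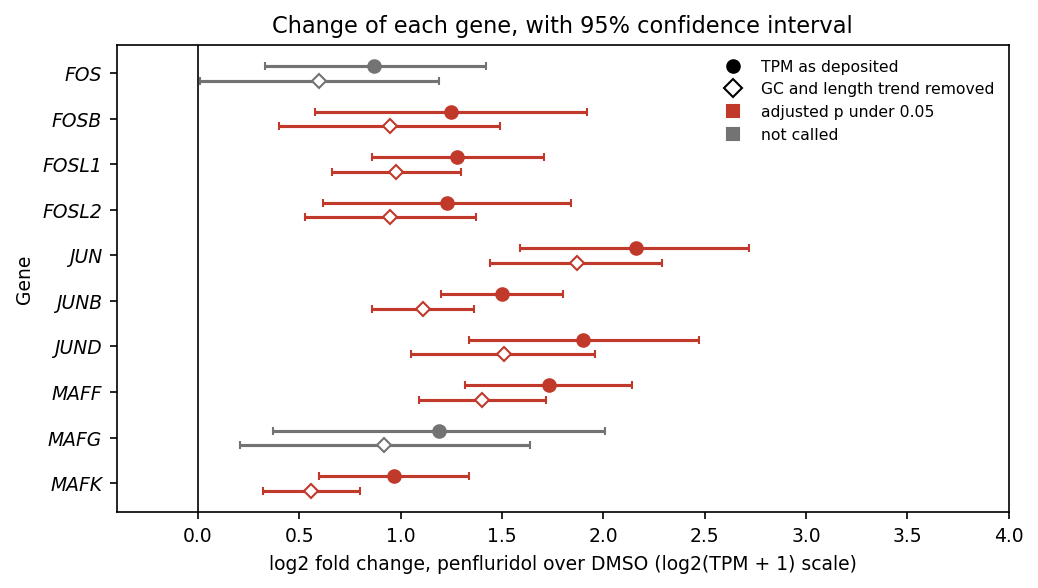
Log2 fold change of penfluridol over DMSO for each gene with its 95% confidence interval, from TPM as deposited (filled circles) and after removal of the GC and length trend (open diamonds). Red marks an adjusted p under 0.05 and grey a gene not called, and every estimate lies right of 0, from 0.87 in FOS to 2.16 in JUN for the filled circles.

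Between libraries of a group the members shared their highest and lowest library in part. Penfluridol 3 held the highest value of 9 members, all but JUNB, and penfluridol 2 the lowest of 9, all but FOSL2. The share of all genes with this order was not counted. The scale factors of median-of-ratios scaling were 0.885, 0.979 and 1.121 for penfluridol 1, 2 and 3, so genes in general also ran high in penfluridol 3. The lowest factor was that of penfluridol 1, whereas most members were lowest in penfluridol 2. Whether the members' order goes beyond such a library-wide shift was not tested. Within DMSO the members split: DMSO 2 was highest for FOS, FOSB, FOSL2 and MAFG and lowest for FOSL1, JUNB, JUND, MAFF and MAFK. DMSO 3 was lowest for FOS, FOSB, FOSL2 and JUN. The genes that were lowest in DMSO 2 had a GC content of 59.4% to 69.7%, and those that were highest there 56.5% to 60.1%.

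JUND was the most abundant member in each group, at 127 ± 17.8 TPM with penfluridol and 34.2 ± 10.2 TPM with DMSO (SD, n = 3 each), above 91.3% of the genes tested with penfluridol and 77.2% with DMSO. JUNB came next, at 78.3 ± 4.70 and 27.1 ± 2.97 TPM. With penfluridol its range was clear of JUND's, while with DMSO the ranges of JUND and JUNB overlapped. With penfluridol the level order went on with FOS (30.5 ± 4.23 TPM), JUN (28.1 ± 7.23), MAFF (26.2 ± 2.45) and FOSL1 (23.6 ± 4.56), each overlapping the next. MAFK at 15.6 ± 0.633 TPM stood clear below them, and FOSL2 (4.44 ± 1.30), MAFG (3.68 ± 1.92) and FOSB (2.30 ± 0.866) overlapped at the low end. In DMSO, FOS came after JUNB at 16.6 ± 4.69 TPM, clear of its neighbours. FOSL1 (9.02 ± 0.846), MAFK (7.52 ± 0.888), MAFF (7.25 ± 1.38) and JUN (5.48 ± 1.30) followed with overlapping neighbours, and FOSL2 (1.30 ± 0.368), MAFG (0.983 ± 0.50) and FOSB (0.367 ± 0.226) came last. The mean of JUN was thus above those of MAFF, FOSL1 and MAFK with penfluridol and below all of them with DMSO.

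The summed TPM of the JUN genes averaged 233 ± 28.0 with penfluridol and 66.8 ± 12.2 with DMSO, a ratio of 3.49. For the small MAF genes the sums averaged 45.5 ± 4.99 and 15.8 ± 1.67 TPM, a ratio of 2.89, and for the FOS genes 60.9 ± 10.5 and 27.2 ± 4.56 TPM, a ratio of 2.23. Within the small MAF sum, MAFF held 57.9%, 58.4% and 56.6% in the penfluridol libraries, against 50.1%, 44.1% and 43.1% in the DMSO libraries. MAFK held the mirror share, 34.5% ± 2.30 with penfluridol and 47.8% ± 3.81 with DMSO. MAFF was thus the larger share in every penfluridol library, and MAFK in DMSO 2 and DMSO 3.

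JUN held 11.0%, 10.9% and 13.8% of the JUN family sum with penfluridol, against 8.78%, 10.7% and 5.73% with DMSO. The share of JUNB was 33.7% ± 2.86 with penfluridol and 41.2% ± 5.18 with DMSO, again with no overlap, while that of JUND overlapped, at 54.4% ± 1.24 and 50.4% ± 7.60. In the FOS family the share of FOS overlapped between the groups (50.4% ± 2.71 with penfluridol and 59.9% ± 7.71 with DMSO), as did that of FOSL1 (38.7% ± 1.20 and 34.1% ± 8.96). FOSB and FOSL2 held larger shares with penfluridol, 3.68% ± 0.798 and 7.25% ± 1.27, than with DMSO, 1.27% ± 0.650 and 4.70% ± 0.606. Two-sided exact permutation tests gave p = 0.1 for the shares without overlap (FOSB, FOSL2, JUN, JUNB, MAFF and MAFK), the smallest p that 3 against 3 libraries allow, and 0.2 to 0.5 for the others, so that no share passed. The difference in the JUND share went to -0.05 points without DMSO 2, against 3.92 with all libraries. That of MAFG went to -0.37 without penfluridol 3, against 1.40, and that of FOSL1 to 0.64 without DMSO 2 and 9.47 without DMSO 3, against 4.60. Shares of a family sum to 100% and are not independent.

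**Figure D3:**
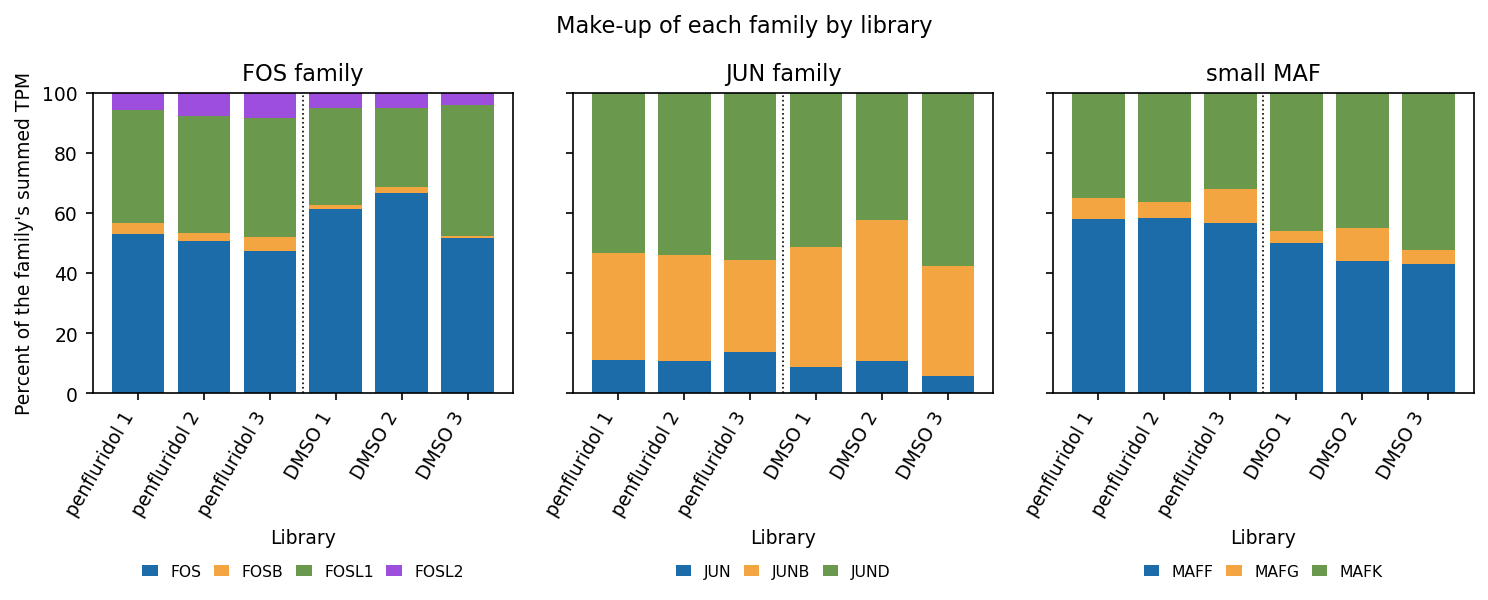
Percent of each family's summed TPM that each member held, 1 bar per library with the 3 penfluridol libraries left of the dotted line and the 3 DMSO libraries right of it. MAFF holds 56.6% to 58.4% of the small MAF sum with penfluridol and 43.1% to 50.1% with DMSO, and the JUN share is larger in each penfluridol bar than in any DMSO bar.

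Features that the choice by symbol did not use were read from GENCODE release 29 (GRCh38). The reference transcripts of JUN, JUNB and JUND had 1 exon and no intron, those of the FOS genes 4 exons and those of the small MAF genes 3. In their 3′ untranslated regions 4 of the 10 genes, FOS, FOSL2, MAFF and MAFK, carried the nonamer TTATTTATT, the AU-rich element bound by the decay factor ZFP36, against 7.2% of 10484 tested protein-coding genes. The untranslated regions of the members were longer, with a median of 1460 bases against 950. Each nonamer is shown in capitals with 8 bases on either side, since these elements mark short-lived early response transcripts.
FOS: tttttaatTTATTTATTaagatgga
FOSL2: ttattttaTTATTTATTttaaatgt
MAFF, first: cccactgtTTATTTATTgcacggat
MAFF, second: cctagaatTTATTTATTtcctgact
MAFK: ccatttcaTTATTTATTttttgtgc
The pentamer ATTTA occurred 5 times in the 806 bases of the FOS region, the densest of the 10. It occurred once in those of FOSL1 and JUND. The 4 genes with the nonamer included the smallest log2 fold changes (0.87 in FOS and 0.97 in MAFK) and a large one (1.73 in MAFF).

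Exons of other annotated genes overlap 3 of the members, and whether the authors' counting used strand was not stated in the sources used here. JUNB lies antisense to HOOK2, which had 28.4 ± 1.44 TPM with penfluridol and 21.5 ± 0.745 TPM with DMSO and did not pass (log2 fold change 0.38, adjusted p = 0.0799). MAFK lies antisense to TMEM184A, which rose, with 7.32 ± 0.374 and 2.88 ± 0.985 TPM (log2 fold change 1.13, adjusted p = 0.0250). MAFG shares exon sequence with SIRT7 on its own strand, which also rose, with 69.2 ± 1.77 and 34.9 ± 2.82 TPM (log2 fold change 0.97, adjusted p = 0.00423). Without strand, reads of JUNB and HOOK2, and those of MAFK and TMEM184A, cannot be told apart where the genes overlap. The value of MAFG is uncertain by its overlap with the more abundant SIRT7. MAFG is also overlapped by AC145207.8 on the opposite strand.

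**Figure D4:**
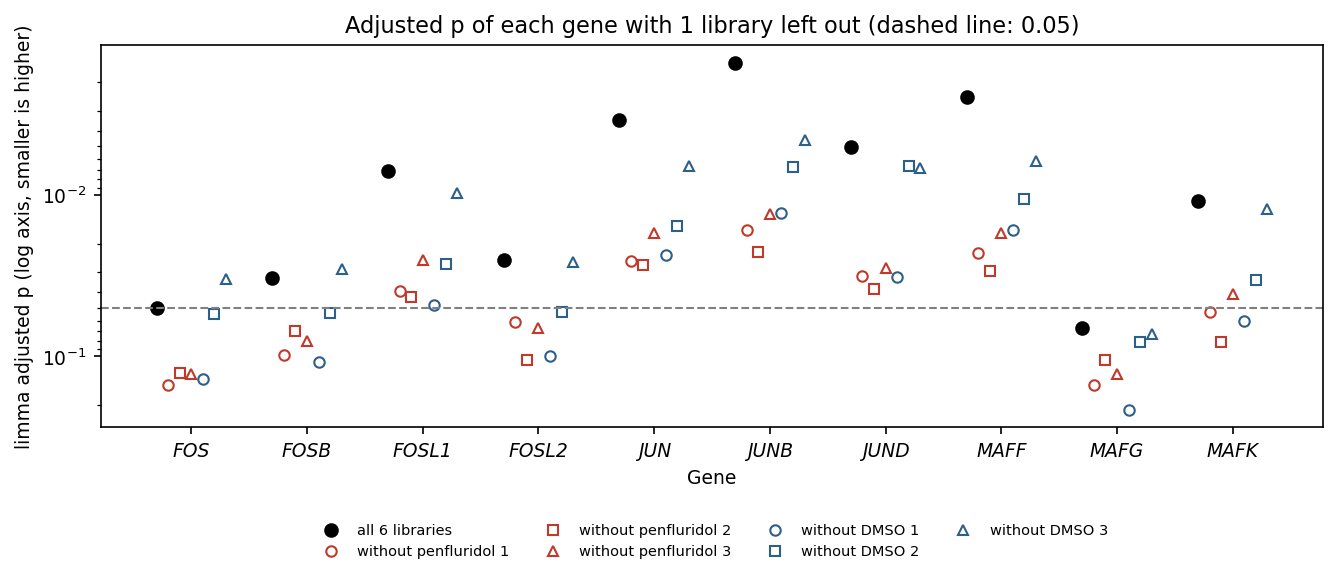
Limma adjusted p of each gene on a log axis (smaller values higher) with all 6 libraries (black) and with each library left out (red for penfluridol, blue for DMSO), and a dashed line at 0.05. FOSL1, JUN, JUNB, JUND and MAFF stay above the line whichever library is left out, with adjusted p-values of at most 0.0478, while MAFG stays below it.

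Other leucine zipper proteins that pair with JUN and FOS proteins, with the large MAF factors, form a list of 11 genes, of which 8 were tested. ATF3 and JDP2 rose and 6 did not pass, where 9.75% of all genes tested were called higher. The list had a median log2 fold change of 0.14, or -0.12 when corrected for GC content and length. ATF3, a stress-induced factor that pairs with JUN proteins, had 34.83, 35.21 and 58.73 TPM with penfluridol, against 2.68, 3.22 and 3.41 TPM with DMSO. Its log2 fold change of 3.38 (adjusted p = 0.000798, SE 0.23) was larger than that of any of the 10 members. JDP2, a repressor that dimerises with JUN and occupies the same sites, was at 29, 29.79 and 31.96 TPM with penfluridol, against 11.89, 11.93 and 11.78 TPM with DMSO, a log2 fold change of 1.28 (adjusted p = 0.00227, SE 0.13). BATF, BATF2 and the large MAF gene MAF stayed below the minimum for testing.

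Of 7 genes for CNC and BACH partners of small MAF proteins and their regulator KEAP1, 5 were tested, 1 rose and 1 fell. Over all genes tested, 9.75% were called higher and 3.48% lower. The list had a median of -0.54 on the log2 scale, or -0.02 when corrected for GC content and length. NFE2L1, which encodes the membrane-bound factor NRF1 that drives proteasome genes, averaged 103 ± 23.5 TPM with penfluridol and 57.2 ± 6.35 TPM with DMSO. It rose by a log2 fold change of 0.82 (adjusted p = 0.0297, SE 0.18), a call lost without penfluridol 2 (0.117), penfluridol 3 (0.0605), DMSO 1 (0.104) or DMSO 2 (0.0642) and with no filter on low TPM (0.0718). NFE2, the erythroid founding member, averaged 2.51 ± 0.0436 TPM with penfluridol and 7.33 ± 0.897 TPM with DMSO. On the log2 scale it fell by 1.24 (adjusted p = 0.00878, SE 0.19), not called without penfluridol 2 (0.0686) or DMSO 1 (0.0666). NFE2L2, which encodes NRF2, did not pass, at 1.78, 2.31 and 2.49 TPM with penfluridol and 3.27, 6.89 and 1.96 TPM with DMSO.

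Upstream of AP-1, 15 of 19 genes of the MAP kinase routes were tested, of which 2 rose, 1 fell and 12 did not pass, shares near the 9.75% called higher and 3.48% called lower over all genes. The median log2 fold change was 0.23, or 0.02 when corrected for GC content and length. MAP2K7, a kinase that activates JNK, averaged 28.8 ± 1.62 TPM with penfluridol and 17.8 ± 1.43 TPM with DMSO (log2 fold change 0.67, adjusted p = 0.0205, SE 0.13). Leaving out any library but DMSO 3 ended this call, as did correcting for GC content and length (0.0574). MAP2K6, a kinase that activates p38, averaged 5.12 ± 1.76 TPM with penfluridol and 19.7 ± 5.11 TPM with DMSO, and on the log2 scale fell by 1.78 (adjusted p = 0.0121, SE 0.29), not called without penfluridol 2 (0.0575) or DMSO 1 (0.0751). MAP2K2, a kinase that activates ERK, averaged 328 ± 19.8 TPM with penfluridol and 231 ± 36.1 TPM with DMSO and was at the edge of the threshold (log2 fold change 0.52, adjusted p = 0.0496). Its call was lost with any library but DMSO 3 left out, with no filter on low TPM (0.107), with median-of-ratios scaling (0.151) and when corrected for GC content and length (log2 fold change 0.21, 0.168). Under that last correction the 1 gene of the list called higher was MAP2K5, at a log2 fold change of 0.70 (0.0135), against 0.42 (0.187) without it.

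Of 9 transcription factors known to act on the FOS and JUN promoters 7 were tested and 3 rose, MEF2D, SRF and ELK1 (median log2 fold change of the list 0.56, or 0.30 when corrected for GC content and length). The share called higher over all genes tested was 9.75%. MEF2D averaged 6.77 ± 1.41 TPM with penfluridol and 2.43 ± 0.197 TPM with DMSO (log2 fold change 1.16, adjusted p = 0.0156), and SRF, which binds the serum response element, 23.9 ± 2.05 and 14.4 ± 0.827 TPM (log2 fold change 0.69, adjusted p = 0.0212). The call of MEF2D was lost without penfluridol 1, penfluridol 2 or DMSO 1, and those of SRF and ELK1 with any library but DMSO 3 left out. ELK1 was also lost with median-of-ratios scaling (0.0929) and with no filter on low TPM (0.0756). With GC content and length corrected for, MEF2D alone was called.

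Among 7 factors that remove AP-1 transcripts or proteins, 6 were tested. Against 9.75% called higher over all genes tested, 1 of these rose. This was ZFP36, which binds the AU-rich nonamers shown for FOS, FOSL2, MAFF and MAFK and speeds the decay of such transcripts. It had 15.13, 14.21 and 20.27 TPM with penfluridol, against 4.40, 4.05 and 2.80 TPM with DMSO, a log2 fold change of 1.88 (adjusted p = 0.00412, SE 0.22). The other 5 did not pass, with log2 fold changes between -0.53 and -0.01, or between -0.36 and 0.38 when corrected for GC content and length.

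Of 25 genes known as AP-1 targets in other cells 13 were tested and 5 rose, PLAU, CXCL8, LIF, VEGFA and TIMP1, while 8 did not pass (median log2 fold change 0.57, or 0.38 when corrected for GC content and length). For comparison, 9.75% of all genes tested were called higher. The calls of LIF, VEGFA and TIMP1 were lost with any library but DMSO 3 left out and with no filter on low TPM, and that of TIMP1 also with median-of-ratios scaling (0.101) and the GC and length trend removed (0.0956). The 12 genes below the minimum included the matrix metalloproteinases MMP1, MMP3, MMP9, MMP10 and MMP13. PLAU, the urokinase plasminogen activator, had 22.58, 25.33 and 26.13 TPM with penfluridol, against 6.56, 5.52 and 5.49 TPM with DMSO. It rose by a log2 fold change of 1.91 (adjusted p = 0.00129, SE 0.15). CXCL8, the chemokine interleukin-8, had 5.32, 4.27 and 5.98 TPM with penfluridol, against 1.26, 1.10 and 0.34 TPM with DMSO (log2 fold change 1.73, adjusted p = 0.0104, SE 0.27), and its call was lost without penfluridol 1 (0.0522) or penfluridol 2 (0.0545). CCND1, which encodes cyclin D1 and is a known JUN target, did not pass (adjusted p = 0.108), at 35.74, 43.42 and 61.99 TPM with penfluridol and 94.35, 116.74 and 54.41 TPM with DMSO. It was called lower with median-of-ratios scaling (0.0468) and without DMSO 3 (0.0182). CCND1 was named after its values were seen.

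Of 15 genes bound by NRF2 and small MAF dimers, all tested, 6 rose, FTH1, OSGIN1, FTL, SRXN1, HMOX1 and NQO1, and 9 did not pass (median log2 fold change 0.18, or 0.47 when corrected for GC content and length). Over all genes tested, 9.75% were called higher. Without penfluridol 2 the calls of HMOX1 (0.0639), SRXN1 (0.0545) and NQO1 (0.0715) were lost, and NQO1 was also lost without DMSO 1 (0.0642) and with median-of-ratios scaling (0.0605). OSGIN1, an oxidative stress response gene, had 24.82, 23.27 and 21.68 TPM with penfluridol, against 4.38, 3.54 and 5.24 TPM with DMSO (log2 fold change 2.18, adjusted p = 0.00131, SE 0.18). FTH1, the ferritin heavy chain, which has processed pseudogenes that can share its reads, rose by 1.68 (adjusted p = 0.00122, SE 0.13). The glutathione genes GCLC and GCLM did not pass (adjusted p = 0.332 and 0.349), though GCLM was called higher once corrected for GC content and length (0.0117) and GCLC lower without DMSO 3 (0.0378). TXN averaged 175 ± 37.4 TPM with penfluridol and 412 ± 182 TPM with DMSO, and PGD 180 ± 5.59 and 222 ± 14.9 TPM. Neither passed (adjusted p = 0.066 and 0.0934), though all penfluridol values lay below the DMSO values, as they did in 13.6% of all genes tested. Both were called lower once corrected for GC content and length (0.0294 and 0.0428), where 8.93% of all genes were.

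**Figure D5:**
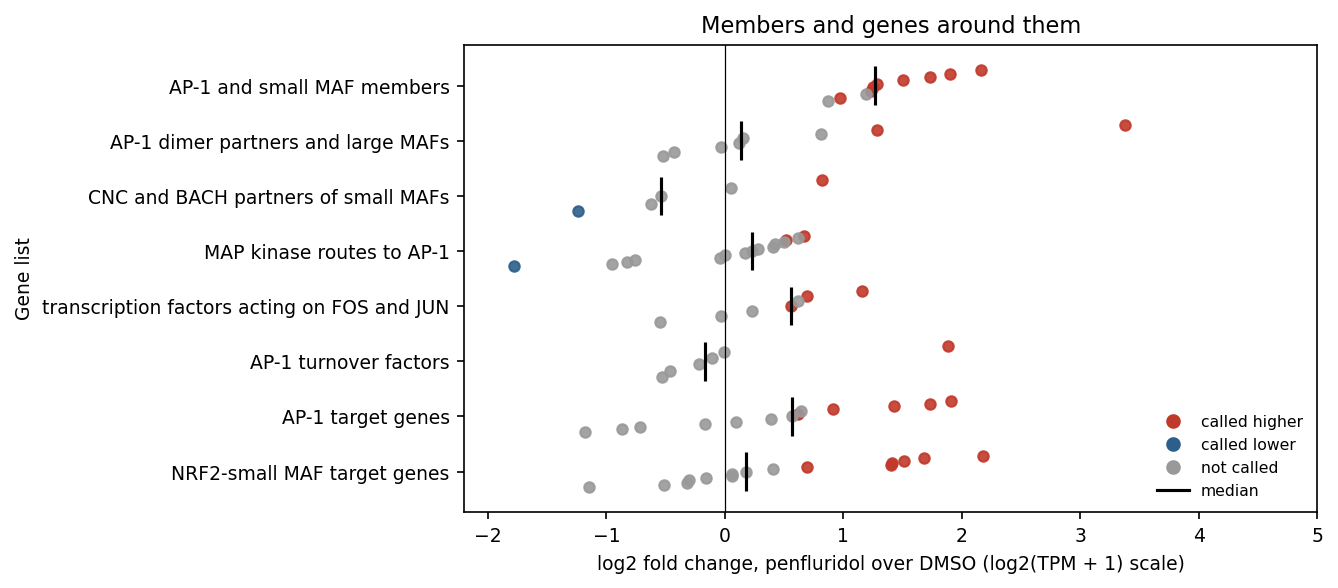
Log2 fold change of penfluridol over DMSO for every tested gene of each list, 1 point per gene, red where called higher, blue where called lower and grey where not called, with a black bar at the list's median. For values not corrected for GC content and length, the medians run from -0.54 for the CNC and BACH partners to 1.27 for the 10 members, and ATF3 is the far right point at 3.38.

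JUND had the highest mean level of the members, and the genes closest to its profile over the 6 libraries were sought among 10627 other protein-coding genes. Likeness was the mean absolute difference between centred log2(TPM + 1) values. CD68, a lysosomal membrane glycoprotein, was closest at 0.113, with 4.67, 4.39 and 4.80 TPM in the penfluridol libraries and 0.92, 0.34 and 0.91 TPM in the DMSO libraries. Its ratio of mean TPM was 6.39, against 3.71 for JUND, since the log2(TPM + 1) scale understates the change of low genes. POLR3D, a subunit of RNA polymerase III, was at 0.131, and EMP3, a small membrane glycoprotein, at 0.136. Among the members MAFF was closest to JUND at 0.196 and FOS farthest at 0.599.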

How the data were processed

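Per the labels' protocols, the submitters built the libraries from total RNA with a SMARTer messenger RNA kit. The deposited values are TPM per gene, which the authors scaled to a fixed total per library. The unit follows from the values, since the columns summed to 994165 to 997207. RSEM, fastp and the build GRCh38.p13 are listed in the submitters' processing notes. The aligner, annotation release and versions were not stated in the sources used here. TPM keeps no read depth, so precision was taken from the spread between libraries. The table held 0 columns of other samples and 1 emptied line.

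Groups came from the treatment label and columns were matched to samples by title. The 12201 genes whose mean reached 1 TPM were fitted with limma 3.58.1 in R 4.3.3 on log2(TPM + 1), with an intercept and treatment and variances following a trend with mean level. P-values are two-sided, adjusted by the Benjamini-Hochberg method over all genes tested, and called under 0.05. The fit was tested on simulated data with noise drawn independently for each gene and library. Such data cannot show how calls hold under library-wide shifts. GC content and length are medians over GENCODE 29 transcripts, at hand for 12112 genes tested, and their trend was removed per library with splines. The alternatives also included a pseudocount of 0.1, other filters on low TPM, median-of-ratios scaling, a replicate block and leaving out each library. From each list the called members with the smallest p were named, up to a pair, with all called partners of AP-1 and small MAF proteins. Any other list gene was chosen once its values had been seen. The members and lists were chosen with earlier results of these data known.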

Additional observations from a re-analysis of the deposited data

How the results depend on the processing

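No member changed its direction under any alternative run. Leaving out a library, another pseudocount or filter, or the replicate block could not have reversed it. In each member all penfluridol values lay above all DMSO values. JUNB and JUND were called in every fit. With the replicate number as a block, 62 genes were called higher and 12 lower, with 2 members (JUNB, adjusted p = 0.0445, and JUND, 0.0432), 1 dimer partner, 1 AP-1 target, 2 NRF2-small MAF targets and 0 genes of the other lists. Same-numbered libraries deviated from their group means with correlations of -0.348 to -0.006. These gave no sign of pairing by number but cannot exclude it, since each mean rests on 3 libraries. With no filter on low TPM, 802 genes were higher and 194 lower, with 0 CNC and BACH partners higher, 1 MAP kinase gene higher and 2 lower, and 2 AP-1 targets higher. With median-of-ratios scaling, 993 were higher and 718 lower, with 1 MAP kinase gene higher, 1 AP-1 target lower and 1 NRF2-small MAF target lower. With the GC and length trend removed, 1227 were higher and 1081 lower, with 1 MAP kinase gene higher and 2 lower, 1 FOS and JUN regulator higher and 2 NRF2-small MAF targets lower. With at least 5 TPM in at least 3 libraries 1 NRF2-small MAF target was lower, and FOSB, FOSL2 and MAFG were not tested. The cause of these changes was not tested.

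With 1 library left out, 197 (without penfluridol 2) to 1692 (without DMSO 3) genes were called higher and 40 to 2261 lower, and 5 to 9 members higher. CNC and BACH partners ranged from 0 to 1 higher and 0 to 2 lower, MAP kinase genes from 0 to 3 in each direction, FOS and JUN regulators from 0 to 3 higher, turnover factors from 0 to 1 lower, AP-1 targets from 1 to 6 higher and 0 to 3 lower, and NRF2-small MAF targets from 3 to 6 higher and 0 to 2 lower. Among the family share differences, those of JUND (lowest -0.05) and MAFG (lowest -0.37) changed sign, and that of FOSL1 ran from 0.64 to 9.47. COL1A1 changed sign to -0.21 with the GC and length trend removed, ranged from -0.20 (without penfluridol 3) to 0.33 with 1 library left out, and was never called. Depth is unknown, so the error of the low genes FOSB, FOSL2 and MAFG rests on 3 libraries per group.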
